A study of Oryza sativa with 16 samples.

Results

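The labdane-related diterpenoid phytoalexins of rice are antimicrobial compounds made from geranylgeranyl diphosphate in the plastid. The 6 genes described here encode enzymes of that pathway, namely the copalyl diphosphate synthases CPS2 and CPS4, the kaurene synthase-like enzyme KSL10 and the cytochrome P450 enzymes CYP99A3, CYP76M7 and CYP71Z6. They were found by symbol or alias in the platform annotation and the gene table of assembly ASM3414082v1, and each matched 1 probe set, so that 6 of 57194 probe sets and 6 of 17905 genes were concerned. Leaf RNA of field-grown, untreated rice (Oryza sativa), taken 25 days after transplanting, had been hybridised to 16 Affymetrix rice arrays, 4 per group. Pusa 1121, a basmati variety, was the aromatic parent of a cross and Pusa 1342 the non-aromatic parent. The aromatic bulk pooled 6 strongly scented recombinant inbred lines of that cross, and the non-aromatic bulk pooled 6 unscented ones. Each bulk therefore gives an average over its lines, in which the parental allele at each of the 6 genes is not given by the labels. The study set the groups apart by grain scent, and no infection, elicitor or ultraviolet treatment was part of it.

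Synthesis of these compounds starts with a pair of cyclisations. CPS2 forms ent-copalyl diphosphate, the precursor of phytocassanes and oryzalexins, and CPS4 forms the syn isomer, the precursor of momilactones and oryzalexin S. Kaurene synthase-like enzymes then close the remaining rings; KSL10 makes the ent-sandaracopimaradiene skeleton of oryzalexins. Cytochrome P450 enzymes oxidise the resulting olefins: CYP99A3 acts in momilactone synthesis, CYP76M7 hydroxylates the cassadiene precursor of phytocassanes, and CYP71Z6 hydroxylates ent-isokaurene. In leaves the genes are known for their induction by fungal infection, chitin elicitors and ultraviolet light, and several of them lie in gene clusters. CPS1 shares its product with CPS2 but serves gibberellin synthesis.

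In the gene table, CPS2 (LOC9266189) and CYP71Z6 (LOC4329725) lay on chromosome 2, 3 genes apart. CPS4 (LOC4335090) and CYP99A3 (LOC4335091) were direct neighbours on chromosome 4, and KSL10 (LOC4352248) lay on chromosome 12. The probe set named CYP76M7 (LOC4341447) needs care. The gene table placed that entry on chromosome 6, whereas CYP76M7 is known as a member of the chromosome 2 cluster, so the identity of this probe set with the phytocassane enzyme is uncertain. No gene coordinates are given, because the genome build of the array annotation was not stated.

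The deposited values are linear intensities with the same median, 64.2, on every array. The upper quartile, read on replicate 1 of the aromatic bulk alone, was 434. Arrays of 1 group correlated with r between 0.914 and 0.934 over all probe sets, and arrays of different groups with r between 0.882 and 0.906. The 5 leaf markers measured were bright in every group, with group means of the small subunit of Rubisco, RBCS, between 22590 and 31430. Of 9 panicle and flower markers, 6 had group means below the array median in each group. The labels call the replicates biological but do not say that separate plants or pools were used, so a p-value here weighs a difference against array-to-array spread only, part or all of which may be technical. A lower level in leaf RNA cannot be told apart from a smaller share of the cells that hold the transcript.

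All 6 genes had their lower means in the aromatic member of each pair, and 5 of 6 passed the test as lower in both comparisons, but not the same 5. KSL10 did not pass between the bulks and CPS4 did not pass between the parents. A gene was called where limma's p-value, adjusted by the Benjamini-Hochberg method over 57194 probe sets, was under 0.05. Of all probe sets, 9.1% were called lower and 9.49% higher in the aromatic bulk than in the non-aromatic bulk, and 13.4% were called lower and 12.5% higher in Pusa 1121 than in Pusa 1342. Brighter probe sets passed more often: when the brighter 28597 alone were fitted, 20.9% were called lower between the bulks and 27.4% between the parents. That set holds 5 of the 6 genes, all but KSL10, of which 5 were called lower between the bulks and 4 between the parents. In each comparison, 5 of the 6 genes also had all 4 aromatic arrays below all 4 non-aromatic ones, as had 11.5% of all probe sets between the bulks and 15.5% between the parents. The median log2 difference of the 6 genes, aromatic minus non-aromatic, was -2.31 between the bulks and -1.89 between the parents. Over all probe sets the corresponding medians were 0.0162 and 0.0154. The 6 genes were chosen with earlier results of these data known. Their counts therefore cannot be weighed against the whole-array shares like those of a blind choice.

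**Figure D1:**
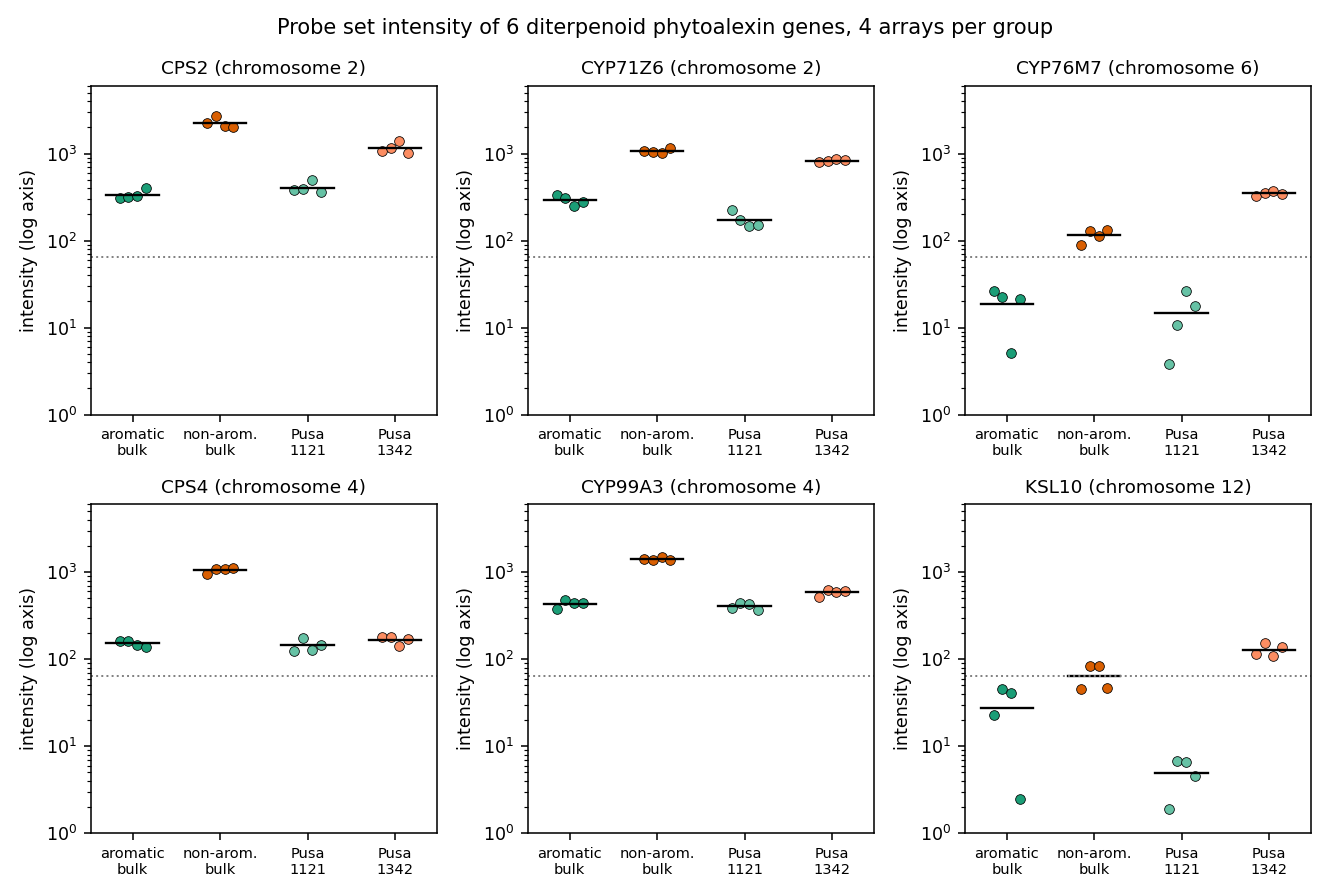
Probe set intensity (log axis) of the 6 genes on each of the 16 arrays, with bars at the mean of 4 arrays per group and a dotted line at the array median of 64.2; chromosomes are those of the gene table. The non-aromatic bulk stands above the other 3 groups for CPS2, CPS4, CYP99A3 and CYP71Z6, and Pusa 1342 stands highest for CYP76M7 and KSL10.

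Of the copalyl diphosphate synthases, CPS2 gave intensities of 311.5, 314.7, 327.9 and 399.7 in the aromatic bulk and of 2235, 2728, 2054 and 2047 in the non-aromatic bulk. Its intensities were 377.5, 389.5, 491.5 and 361.9 in Pusa 1121 and 1067, 1154, 1385 and 1004 in Pusa 1342. Every array of the non-aromatic groups lay above every array of the aromatic groups, and the non-aromatic bulk lay above its parent as well. The means were 338.5 ± 41.4 and 2266 ± 320.2 (SD, n = 4) in the bulks, a 6.70-fold ratio, and 405.1 ± 58.7 and 1152 ± 166.5 (SD, n = 4) in the parents, a 2.85-fold ratio. On the log2(intensity + 1) scale the aromatic group was lower by a difference of -2.74 (SE 0.14, adjusted p = 1.96e-08) between the bulks and of -1.51 (SE 0.14, adjusted p = 1.50e-06) between the parents.

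CPS4, which feeds momilactone synthesis, gave intensities of 164.0, 161.5, 146.9 and 139.5 in the aromatic bulk and of 952.1, 1080, 1091 and 1117 in the non-aromatic bulk. In Pusa 1121 its intensities were 124.9, 175.2, 128.4 and 146.7, and in Pusa 1342 they were 181.0, 179.5, 141.9 and 171.2. The non-aromatic bulk stood alone: its lowest array was far above the highest array of any other group, and the parents overlapped. Mean intensity was 153.0 ± 11.7 against 1060 ± 73.7 in the bulks (SD, n = 4), a 6.93-fold ratio with a log2 difference of -2.79 (SE 0.12, adjusted p = 4.92e-09). Between the parents the means were 143.8 ± 23.0 and 168.4 ± 18.2 (SD, n = 4), and the log2 difference of -0.23 (SE 0.12, adjusted p = 0.201) did not pass. Without replicate 2 of Pusa 1121 that difference was -0.33 and just passed, with an adjusted p of 0.0496.

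The single kaurene synthase-like gene of the 6, KSL10, was dim. Its intensities were 22.6, 45.3, 40.8 and 2.49 in the aromatic bulk and 45.0, 83.5, 84.6 and 46.2 in the non-aromatic bulk. In Pusa 1121 they were 1.91, 6.69, 6.65 and 4.57, and in Pusa 1342 they were 113.4, 154.9, 109.8 and 138.3. The parents were far apart and did not overlap, whereas the highest aromatic array of the bulks reached the lowest non-aromatic one, and 10 of the 16 arrays were below the array median. Mean intensity was 4.96 ± 2.26 in Pusa 1121 and 129.1 ± 21.4 in Pusa 1342 (SD, n = 4), with a log2 difference of -4.54 (SE 0.66, adjusted p = 1.05e-04). The bulks had means of 27.8 ± 19.5 and 64.8 ± 22.2 (SD, n = 4), and their log2 difference of -1.66 (SE 0.66, adjusted p = 0.106) did not pass. Replicate 4 of the aromatic bulk carried much of that value, since without it the difference was -0.82. Near the bottom of the scale the size of a log2 difference also depends on the pseudocount: with 16 in place of 1, the difference was -2.79 between the parents and -0.98 between the bulks, the latter then passing with an adjusted p of 0.0398.

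Among the cytochrome P450 genes, CYP99A3, the momilactone gene next to CPS4, gave intensities of 375.0, 474.2, 443.6 and 438.6 in the aromatic bulk and of 1408, 1395, 1489 and 1391 in the non-aromatic bulk. Its intensities were 384.2, 444.1, 425.8 and 369.2 in Pusa 1121 and 516.4, 620.6, 596.4 and 609.7 in Pusa 1342. As for CPS4, the non-aromatic bulk was highest by a wide margin, but here the parents did not overlap. The bulk means of 432.8 ± 41.6 and 1421 ± 45.9 (SD, n = 4) gave a log2 difference of -1.72 (SE 0.0955, adjusted p = 4.02e-08). The parental means of 405.8 ± 35.0 and 585.8 ± 47.3 (SD, n = 4) gave -0.53 (SE 0.0955, adjusted p = 7.16e-04).

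CYP71Z6, from the chromosome 2 cluster, gave intensities of 331.4, 310.4, 248.1 and 279.0 in the aromatic bulk and of 1070, 1049, 1014 and 1166 in the non-aromatic bulk. In Pusa 1121 it gave 224.9, 171.9, 145.5 and 152.4, and in Pusa 1342 it gave 793.4, 815.2, 859.9 and 833.6. Both non-aromatic groups were above both aromatic groups on every array. The log2 difference was -1.88 (SE 0.13, adjusted p = 3.05e-07) between bulks with means of 292.2 ± 36.4 and 1075 ± 65.0 (SD, n = 4). Between the parents, with means of 173.7 ± 35.9 and 825.5 ± 28.2 (SD, n = 4), it was -2.26 (SE 0.13, adjusted p = 1.16e-08).

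The probe set named CYP76M7 had intensities of 26.4, 22.5, 5.16 and 21.1 in the aromatic bulk and of 88.3, 127.5, 113.6 and 130.8 in the non-aromatic bulk. Its intensities were 3.81, 10.8, 26.1 and 17.9 in Pusa 1121 and 323.2, 355.2, 371.2 and 342.9 in Pusa 1342. All 8 arrays of the aromatic groups were below the array median and all 8 of the non-aromatic groups above it. The bulk means were 18.8 ± 9.35 and 115.0 ± 19.3 (SD, n = 4), with a log2 difference of -2.74 (SE 0.51, adjusted p = 0.00158), and the parental means were 14.6 ± 9.56 and 348.1 ± 20.3 (SD, n = 4), with -4.74 (SE 0.51, adjusted p = 6.07e-06). With a pseudocount of 16 these differences were -1.95 and -3.62. On the log2 scale, replicate 3 of the aromatic bulk stood apart from the other 3 arrays of its group, and without it the difference between the bulks was -2.24 (adjusted p = 0.003).

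**Figure D2:**
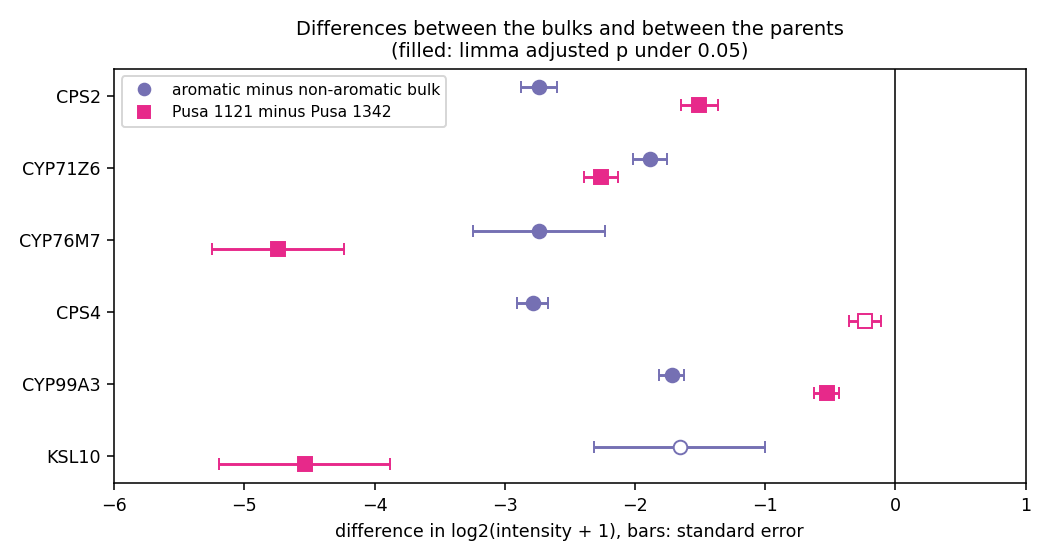
Difference in log2(intensity + 1) of the 6 genes, aromatic minus non-aromatic bulk (circles) and Pusa 1121 minus Pusa 1342 (squares), with bars for the standard error and filled symbols for an adjusted p under 0.05 in limma. All 12 differences lie below 0; CPS4 between the parents and KSL10 between the bulks are open.

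Whether the parents differed by as much as the bulks was tested directly, as the parental difference minus the bulk difference on the log2 scale. It passed for 4 of the 6 genes, against 19.4% of all probe sets. The parental difference was the smaller one for CPS2, by 1.23 (SE 0.199, adjusted p = 4.57e-04), for CPS4, by 2.55 (adjusted p = 1.34e-07), and for CYP99A3, by 1.19 (adjusted p = 2.14e-05). For KSL10 it was the larger one, at -2.88 (adjusted p = 0.0445). The KSL10 call was weak: it was lost in all but 1 of the 16 fits that left out 1 array, with adjusted p-values of up to 0.0904, and it held without replicate 4 of the aromatic bulk, at -3.72 (adjusted p = 1.85e-04). With a pseudocount of 16 it passed at -1.80 (adjusted p = 0.00873). CYP76M7, at -2.003 (adjusted p = 0.0719), and CYP71Z6, at -0.38 (adjusted p = 0.197), did not pass.

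Each bulk was also set against the parent of its own scent class. The aromatic bulk and Pusa 1121 differed in 1 of the 6 genes, CYP71Z6, which was 0.76 log2 units higher in the bulk (SE 0.13, adjusted p = 7.65e-04), and 18.6% of all probe sets were called in that comparison. For CPS2, CYP76M7, CPS4 and CYP99A3 the log2 differences lay between -0.26 and 0.40 and did not pass, with adjusted p-values from 0.272 to 0.697. KSL10, at 1.85 (SE 0.66, adjusted p = 0.0711), did not pass with all arrays, but passed at 2.69 (adjusted p = 2.29e-04) without replicate 4 of the aromatic bulk, its lowest array. With a pseudocount of 16 it was 0.93 (adjusted p = 0.0525). A p above the threshold does not show that these levels were the same.

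The non-aromatic bulk and Pusa 1342 differed in 4 of the 6 genes, against 23.6% of all probe sets. The bulk was higher for CPS4 by 2.65 (SE 0.12, adjusted p = 2.65e-09), for CYP99A3 by 1.28 (SE 0.0955, adjusted p = 3.21e-07) and for CPS2 by 0.98 (SE 0.14, adjusted p = 1.37e-04) on the log2 scale. These 3 genes of the syn- and ent-copalyl branches thus had more signal in the pooled unscented lines than in either parent. CYP76M7 went the other way, at -1.60 (SE 0.51, adjusted p = 0.0348), a call that was lost with the replicate number as a block (adjusted p = 0.0618) and in each of the 8 fits that left out 1 array of these groups. For KSL10 the difference of -1.03 did not pass (adjusted p = 0.319). CYP71Z6, 0.38 higher in the bulk, lay just above the threshold (adjusted p = 0.0512) and passed under several other settings, such as a pseudocount of 16 (adjusted p = 0.0354).

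The order of the 4 groups differed between genes, and 9 of 18 neighbouring pairs passed. The pairs come from several comparisons and were set by sorting the same group means. No single whole-array share therefore stands beside this count. For CPS2 the order from low to high was aromatic bulk, Pusa 1121, Pusa 1342 and non-aromatic bulk, and only the first pair did not differ beyond the spread. CYP99A3 ran from Pusa 1121 over the aromatic bulk and Pusa 1342 to the non-aromatic bulk, again with only the first pair not passing. CPS4 followed the same order, but only its last step, to the non-aromatic bulk, passed. For CYP71Z6 the order was again that of CYP99A3, with only the last pair not passing. CYP76M7 and KSL10 instead ended with Pusa 1342 above the non-aromatic bulk. For CYP76M7 the last 2 steps passed, and for KSL10 no step between neighbours did, although the ends of its order were 4.54 log2 units apart.

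Across the groups that share no scent class, Pusa 1342 exceeded the aromatic bulk in 5 of the 6 genes, with log2 differences, bulk minus parent, of -1.76 for CPS2, -1.50 for CYP71Z6, -4.34 for CYP76M7, -0.44 for CYP99A3 and -2.69 for KSL10. CPS4, at -0.13 (adjusted p = 0.510), did not pass, and 12.3% of all probe sets were called lower in the aromatic bulk there. The non-aromatic bulk exceeded Pusa 1121 in all 6 genes, by 1.81 for CYP99A3 to 3.50 for KSL10, with 12.7% of all probe sets called higher. These comparisons reuse the arrays of the earlier ones and are no separate evidence.

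Over the 16 arrays, the log2 levels of CPS4 and CYP99A3 correlated with r = 0.962, those of CPS2 and CYP99A3 with r = 0.913 and those of CPS2 and CYP71Z6 with r = 0.904. The lowest of the 15 correlations was between CYP76M7 and CPS4, at 0.361. These values describe mostly the 4 group means. After the group means were subtracted, the correlations lay between -0.51 and 0.42.

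The other genes of the pathway were taken from lists, and members were counted through their brightest probe set. Beside the list and neighbour counts below stand the shares of all probe sets. Between the bulks 9.1% were called lower and 9.49% higher on the aromatic side, and between the parents 13.4% and 12.5%. Among brighter probe sets 20.9% and 27.4% were called lower. No list was tested against these shares. Of 3 further kaurene synthase-like genes, 1 was lower in the aromatic bulk and 2 did not pass, and all 3 were lower in Pusa 1121 than in Pusa 1342. KSL7, which makes the cassadiene skeleton of phytocassanes, had mean intensities of 744.2, 1044, 140.1 and 229.6 in the aromatic bulk, the non-aromatic bulk, Pusa 1121 and Pusa 1342. Its log2 difference was -0.49 between the bulks (adjusted p = 0.00264) and -0.71 in the parental pair (adjusted p = 5.91e-05), and both bulks exceeded both parents. A second, dimmer KSL7 probe set did not pass in either comparison (adjusted p = 0.424 and 0.137). KSL4, the syn-pimaradiene synthase of momilactone synthesis, did not pass between the bulks (-0.68, adjusted p = 0.725) and was lower in Pusa 1121 by a log2 difference of -3.08 (adjusted p = 0.0336). KSL5, another class I synthase, likewise passed between the parents, at -1.98 (adjusted p = 6.17e-04), and not between the bulks, at -0.71 (adjusted p = 0.205).

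Of 7 further cytochrome P450 and dehydrogenase genes, 4 were lower in the aromatic bulk and 3 did not pass. Between the parents 2 were lower, 1 was higher and 4 did not pass. CYP701A8, a relative of kaurene oxidase that acts on phytoalexin precursors, had means of 784.5, 2491, 939.2 and 1271 in the order aromatic bulk, non-aromatic bulk, Pusa 1121 and Pusa 1342. Its log2 differences were -1.67 between the bulks (adjusted p = 1.88e-08) and -0.43 in the parental pair (adjusted p = 0.00145). CYP99A2, the close relative of CYP99A3, had means of 337.6, 1050, 544.9 and 480.6 and passed between the bulks alone, at -1.67 (adjusted p = 9.37e-06), against 0.17 between the parents (adjusted p = 0.569).

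MAS, the momilactone A synthase, differed in opposite directions in the 2 comparisons. Its means were 70.2, 185.9, 128.4 and 45.7 in the same order of groups. The log2 difference was -1.41 between the bulks (adjusted p = 5.84e-04) and 1.52 in the parental pair (adjusted p = 1.56e-04), so Pusa 1121 had more signal than Pusa 1342. Of the listed cytochrome P450 genes near CPS2 on chromosome 2, CYP76M8 passed between the bulks (-0.71, adjusted p = 3.11e-04), on a probe set of the type that can bind related transcripts. CYP71Z7 passed in neither comparison (-0.14 and 0.19). CYP76M5 passed between the parents, at -1.56 (adjusted p = 0.00726), and gave -0.98 between the bulks (adjusted p = 0.105). CYP76M6 passed in neither comparison through its brighter probe set, by the mean over all arrays, while its other one gave -3.85 between the bulks (adjusted p = 8.94e-05) and -1.96 in the parental pair (adjusted p = 0.00944).

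**Figure D3:**
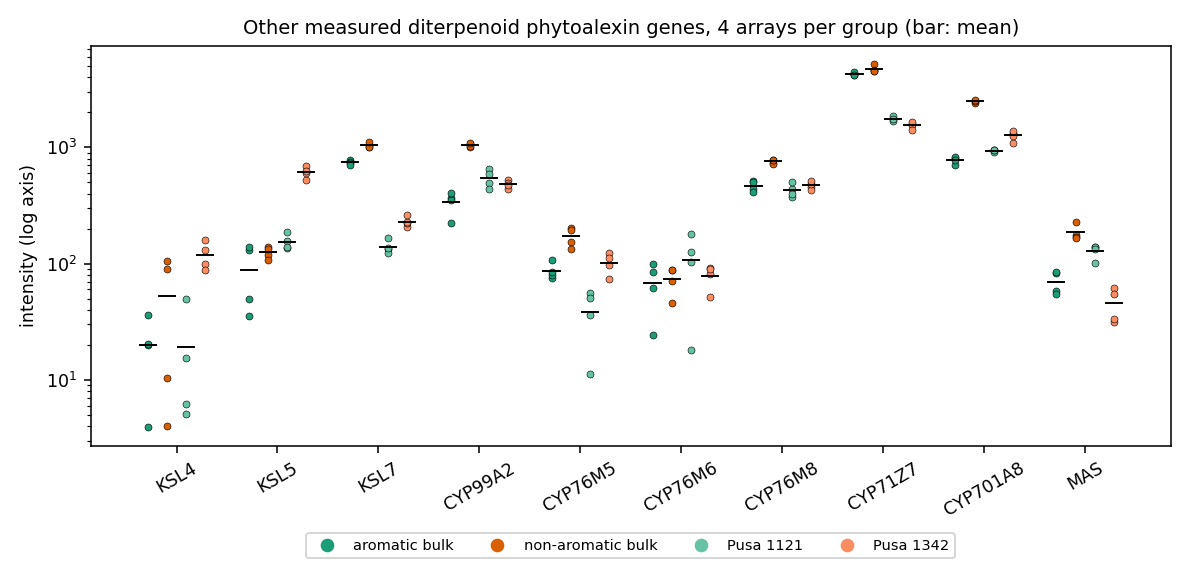
Probe set intensity (log axis) of the 10 other measured genes of the pathway on each of the 16 arrays, with bars at the mean of 4 arrays per group. The non-aromatic bulk is highest for CYP701A8, CYP99A2, MAS and KSL7, both bulks exceed both parents for CYP71Z7 and KSL7, and Pusa 1342 is highest for KSL5.

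The 6 genes were also viewed with their neighbours, taking every measured gene among the 15 on either side in the gene order. Around CPS2, 8 genes of the pathway were measured, CPS2 and CYP71Z6 included, of which 4 were lower in the aromatic bulk and 5 lower in Pusa 1121, and none was higher. Of the 9 other genes there, none was lower in either comparison, 1 was higher in the aromatic bulk and 4 were higher in Pusa 1121. One of these, LOC4329723, lies inside the cluster between CYP76M8 and KSL7 and had means of 729.2 and 724.2 in the aromatic and non-aromatic bulk and of 520.8 and 322.2 in Pusa 1121 and Pusa 1342. Its log2 difference was 0.01 between the bulks and 0.70 between the parents (adjusted p = 1.13e-04).

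Around CPS4, 5 genes of the pathway were measured, including CYP99A3, MAS, KSL4 and CYP99A2. Between the bulks, 4 of them were lower in the aromatic bulk, and between the parents 2 were lower and 1 was higher. Of 8 other genes near CPS4, 2 were lower and 1 was higher in the aromatic bulk, and 4 were higher in Pusa 1121 with none lower. KSL10 had no measured gene of the pathway near it. Of its 8 measured neighbours, none was lower in either comparison, 2 were higher in the aromatic bulk and 1 in Pusa 1121. That gene, LOC4352254, was 9 genes from KSL10 and had a mean of 2235 in Pusa 1121 against 59.4 in Pusa 1342, the opposite direction to KSL10.

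**Figure D4:**
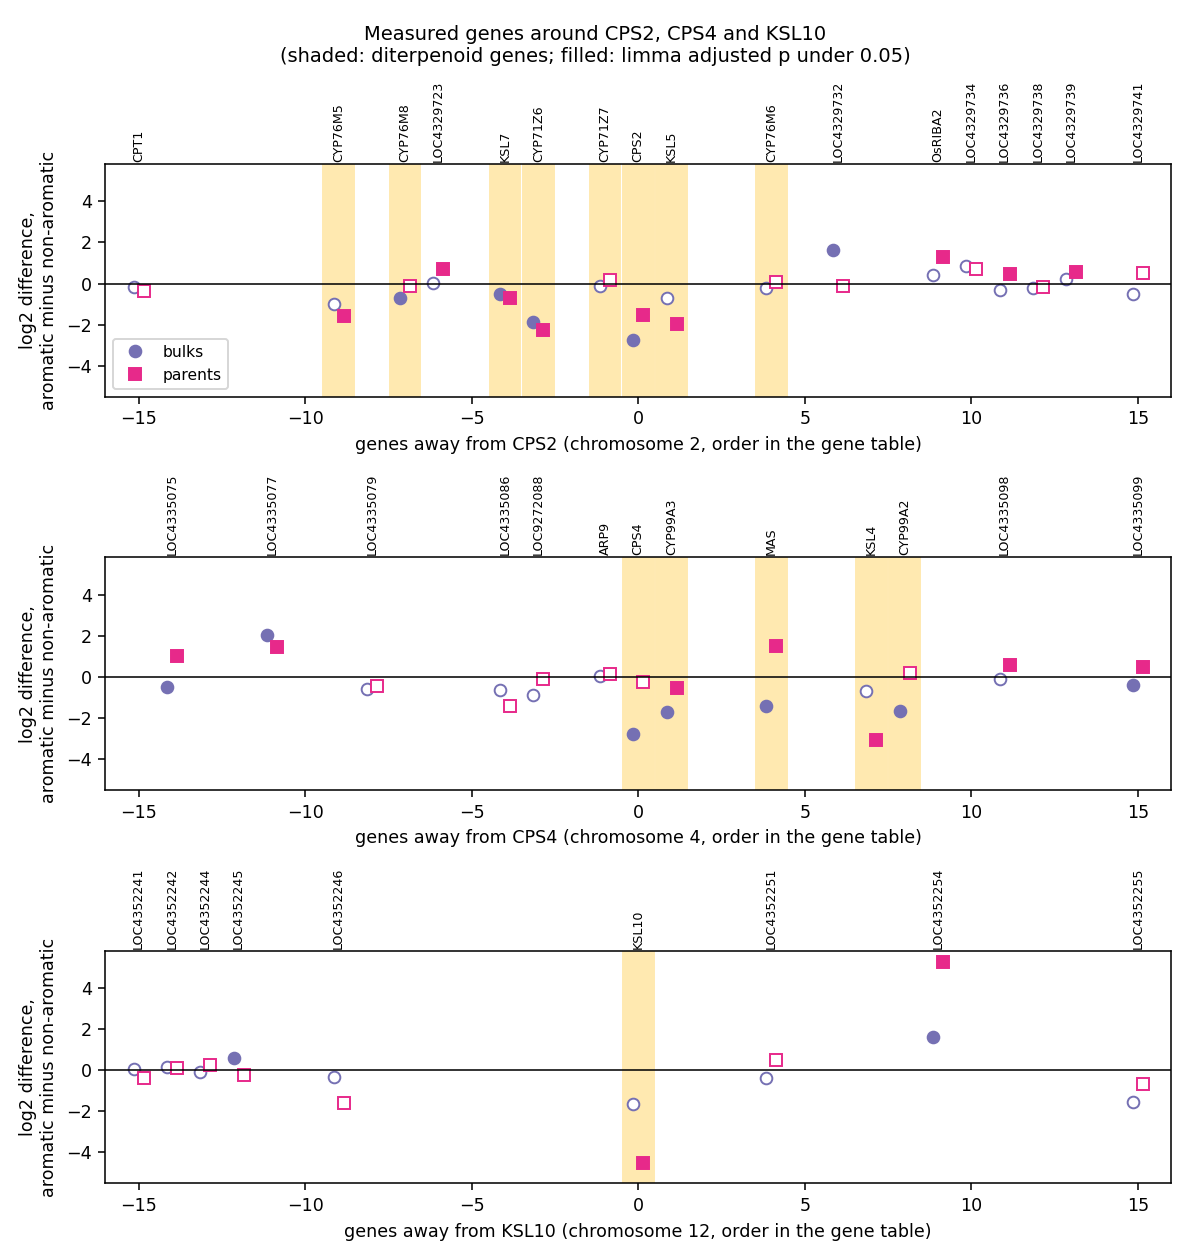
Log2 difference, aromatic minus non-aromatic, of the measured genes among the 15 on either side of CPS2, CPS4 and KSL10, by gene order and not by distance; circles are the bulks, squares the parents, filled symbols passed in limma and shading marks genes of the pathway. Filled symbols inside the shading lie below 0 with 1 exception, MAS between the parents.

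Supply of the shared precursor was read from 6 genes of the plastid methylerythritol phosphate route. Between the bulks 3 were higher and 1 lower in the aromatic bulk, and between the parents 4 were lower and 1 higher in Pusa 1121. The parental differences were -0.95 for ISPG (adjusted p = 2.29e-08) and -0.77 for ISPH (adjusted p = 4.17e-07), which act at the end of the route. DXR gave -0.78 (adjusted p = 7.11e-06), and CLA1, the first enzyme of the route, gave -0.71 (adjusted p = 7.56e-06). Between the bulks CLA1 was higher, at 0.34 (adjusted p = 0.00683), and ISPG lower, at -0.23 (adjusted p = 0.0122), and ISPF, at 0.31 (adjusted p = 0.0245), and ISPE, at 0.39 (adjusted p = 0.0358), were higher. A second, dimmer probe set of CLA1 gave 3.54 between the bulks (adjusted p = 5.15e-04) and did not pass between the parents (0.65, adjusted p = 0.494).

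For the gibberellin branch, which draws on the same ent-copalyl diphosphate, the list of 9 genes holds synthesis genes and also the receptor gene GID1, the repressor gene SLR1 and EUI, which encodes a gibberellin-inactivating enzyme. None was higher and 3 were lower in the aromatic bulk, namely the synthesis gene GA20OX3 with GID1 (-0.71) and EUI (-0.82). In Pusa 1121, 5 were lower, CPS1, KS1, GA20OX3, GID1 (-0.90) and EUI (-0.82), and the synthesis gene KAO was higher, at 1.26 (adjusted p = 7.79e-04). CPS1, the gibberellin counterpart of CPS2, gave a log2 difference of 0.45 between the bulks (adjusted p = 0.107) and of -0.65 between the parents (adjusted p = 0.0149). KS1, the kaurene synthase of that branch, gave 0.07 (adjusted p = 0.713) and -0.33 (adjusted p = 0.0233). GA20OX3, a gibberellin oxidase gene, had the lowest adjusted p of the list in both comparisons, at -2.01 between the bulks (3.44e-05) and -2.55 between the parents (1.41e-06).

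Of 12 genes that regulate the pathway or defence, 2 were higher and 4 lower in the aromatic bulk, and 2 were higher and 4 lower in Pusa 1121. WRKY76, a transcription factor known to repress phytoalexin genes, had means of 504.9, 1493, 468.6 and 812.1 in the order aromatic bulk, non-aromatic bulk, Pusa 1121 and Pusa 1342. Its log2 difference was -1.57 between the bulks (adjusted p = 3.70e-07) and, for the parents, -0.80 (adjusted p = 6.63e-05), in the direction of the 6 synthesis genes. WRKY62 was also lower in both comparisons, at -1.08 (adjusted p = 3.39e-04) and -1.14 (adjusted p = 1.05e-04). COI1A, a jasmonate receptor, was lower in both comparisons, at -0.52 (adjusted p = 1.03e-04) and -0.91 (adjusted p = 1.74e-07). The other receptor gene, COI1B, was higher in the aromatic bulk, at 0.44 (adjusted p = 2.61e-04), and gave 0.13 between the parents (adjusted p = 0.205). CIPK14, a kinase gene of elicitor signalling, was also higher in the aromatic bulk, at 1.25 (adjusted p = 7.21e-04). MPK3, a mitogen-activated protein kinase of defence signalling, passed between the bulks at -0.99 (adjusted p = 1.33e-04) but gave 0.13 between the parents (adjusted p = 0.593). JAR1, which conjugates jasmonate to isoleucine, passed between the parents at -1.02 (adjusted p = 2.24e-07), where NPR1, the salicylate coregulator, was higher in Pusa 1121, at 1.00 (adjusted p = 4.80e-07).

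Of 9 genes of general defence, 1 was higher and 6 lower in the aromatic bulk, and 1 was higher and 4 lower in Pusa 1121. CHT1, a chitinase gene, had means of 292.2, 1114, 349.2 and 401.8 in the same order of groups. Its log2 difference was -1.93 between the bulks (adjusted p = 8.23e-08) and -0.19 in the parental pair (adjusted p = 0.285). CHT5, of the same list, had means of 10.6, 123.8, 32.1 and 322.2, with both aromatic means under the array median of 64.2. It was lower in both comparisons, at -3.95 (adjusted p = 4.96e-04) and -3.51 (adjusted p = 6.93e-04). PAL06, a phenylalanine ammonia-lyase gene, was lower in both, at -1.67 (adjusted p = 1.40e-05) and -2.06 (adjusted p = 6.34e-07), as was PBZ1, a pathogenesis-related gene, at -0.38 (adjusted p = 7.79e-04) and -0.53 (adjusted p = 2.20e-05). The called genes that were higher were AOS1, an allene oxide synthase gene of jasmonate synthesis, at 1.09 between the bulks (adjusted p = 0.00397), and CHS1, a chalcone synthase gene, at 0.62 between the parents (adjusted p = 2.65e-05). Each was lower in the other comparison, AOS1 at -1.01 (adjusted p = 0.00415) and CHS1 at -0.25 (adjusted p = 0.0351). AOS2, the other allene oxide synthase gene of the list, was lower in the aromatic bulk, at -1.71 (adjusted p = 0.0418). Between the parents it gave -0.22 (adjusted p = 0.838). Of the 4 dimmer CHS1 probe sets, none passed between the parents.

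Genes with the most similar pattern were sought by Pearson's r of log2(intensity + 1) over the 16 arrays, among 2457 genes with a published name. Since the 16 points fall into 4 groups, r mostly reflects the group means. For CPS4 the list was led by CYP99A3 (r = 0.962) and CHT1 (r = 0.962), followed by the phosphatase gene PP2C68 (r = 0.960), the florigen gene Hd3a (r = 0.957) and the calmodulin-like gene CML31 (r = 0.954). For CYP99A3 it held the nitrate transporter gene NRT2.3 (r = 0.974), INO1 (r = 0.968), CPS4, CYP701A8 (r = 0.962) and WRKY76 (r = 0.961). Genes of the same pathway were thus among the 5 closest for both members of the chromosome 4 pair.

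For CPS2 the closest genes were OsCASPL2C1 (r = 0.978), the flowering gene MADS14 (r = 0.973), NH3, a homologue of NPR1 (r = 0.970), the glutamine synthetase gene GLN1-1 (r = 0.964) and NCBP (r = 0.954). For CYP71Z6 they were AT7 (r = 0.987), the ascorbate peroxidase gene APX7 (r = 0.984), the glutaredoxin gene GRXS5 (r = 0.983), HSF1 (r = 0.980) and CIPK18 (r = 0.979). ELA3 (r = 0.971) was closest to CYP76M7 and the potassium transporter gene HAK22 (r = 0.906) to KSL10, which had the weakest closest match of the 6 genes. None of these lists held another gene of the pathway.

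Of the flowering genes just named, MADS14 had mean intensities of 251.5 and 8141 in the aromatic and non-aromatic bulk and of 375.1 in Pusa 1121 and 4125 in Pusa 1342. Hd3a had 289.9, 1913, 193.7 and 166.8 in the same order. The 9 panicle and flower markers were fixed as a separate list, of which 1, MADS16, was lower in the aromatic bulk and 2, MADS16 and MADS1, were lower in Pusa 1121, with none higher and none at 0. Their summed intensity was 1435 to 1607 against 1896 to 2324 in the bulks, aromatic first, and 1483 to 1799 in Pusa 1121 and 3806 to 4433 in Pusa 1342. The part of flowering state or of such tissue in the differences of the phytoalexin genes was not tested. Summed leaf markers lay between 138800 and 152900 on all arrays, and the bulks overlapped in them. Single leaf markers did differ. In the aromatic bulk 2 of 5 were higher, PORB at 0.24 (adjusted p = 0.017) and CHLH at 0.38 (adjusted p = 0.0022), with none lower. In Pusa 1121, 2 were higher, RBCS at 0.44 (adjusted p = 2.45e-04) and PORB at 0.35 (adjusted p = 8.0e-04). RCA was lower there, at -0.42 (adjusted p = 9.49e-05). Of 4 root markers, the silicon transporter gene LSI1 was lower in both comparisons, at -0.77 (adjusted p = 4.86e-05) and -0.53 (adjusted p = 5.68e-04), and NAAT1 was higher in Pusa 1121, at 0.78 (adjusted p = 5.71e-07). In the bulks, aromatic first, the summed root markers were 11090 to 11600 against 10800 to 11520. In the parents they were 9799 to 10250 against 6673 to 7176, opposite to the 6 genes. These parental sums mostly reflect NAAT1, with means of 8752 in Pusa 1121 and 5111 in Pusa 1342. LSI1, with means of 1037 and 1499, ran in the direction of the 6 genes, and 2 root markers did not pass between the parents. None of 6 seed markers passed between the bulks, and 1, WX1, was higher in Pusa 1121, at 1.78 (adjusted p = 2.88e-05). Their sums were 1645 to 1846 against 1154 to 1716 in the bulks and 1849 to 1981 against 1350 to 1641 in the parents. No root or seed marker was at 0, and their part in the differences was not tested.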

How the data were processed

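Per the submitters' processing notes, GCOS 1.2 and RMA were used, with no role or order stated. Of the build and further parameters, the sources used here give nothing. The authors deposited 1 linear intensity per probe set and array, with an equal median on every array, so that general shifts of a group are hidden. Of 57381 probe sets, 187 controls were left out. Names came from the platform annotation: 22436 probe sets had 1 gene, 95 several and 34663 none listed. No detection calls were used.

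The sample labels gave the groups. The log2(value + 1) levels were fitted in R 4.3.3 by limma 3.58.1 (lmFit, then eBayes) to 4 group means over 16 arrays, with 12 residual degrees of freedom, two-sided, with Benjamini-Hochberg adjustment over 57194 probe sets and a threshold of 0.05. The median residual SD was 0.691 in log2, at 1.09 for dimmer and 0.196 for brighter probe sets, which limits what dim genes can show. The steps were tested on simulated data.

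The 6 genes and all lists were chosen with earlier results of these data known, and the list names were matched to the gene table after it was seen; 1 gene that did not belong to the precursor list was then dropped. A gene with several probe sets was read through the brightest. The naming rule was up to 4 genes per list with the lowest adjusted p and the 5 named genes of most similar pattern. CPS1, KS1, the further synthesis genes, AOS1, AOS2, CIPK14, WRKY62, the named neighbours and markers, and the means of MADS14 and Hd3a were added after their values were seen. Same-numbered arrays of different groups did not deviate together (r between -0.00709 and 0.0136 over 24 pairs, none over 0.1), so the numbers were not taken as pairs. Alternatives were a pseudocount of 16, brighter probe sets only, a replicate block, a variance trend, probe sets averaged per gene, only the 8 arrays compared, and each array left out in turn. Promoter and protein sequences were not analysed here.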

Additional observations from a re-analysis of the deposited data

Results flagged for a closer look

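For 4 of the 6 genes the difference between the parents departed from that between the bulks by the test of the difference itself (limma, adjusted over all probe sets). On the log2 scale, parental minus bulk difference, the values were 1.23 for CPS2 (adjusted p = 4.57e-04), 2.55 for CPS4 (adjusted p = 1.34e-07), 1.19 for CYP99A3 (adjusted p = 2.14e-05) and -2.88 for KSL10 (adjusted p = 0.0445). In CPS2, CPS4 and CYP99A3 the bulks were further apart than the parents, and in KSL10 the parents were further apart. The KSL10 value is the least firm: its call was lost in all but 1 of the 16 fits that left out 1 array, and with a pseudocount of 16 it was -1.80 (adjusted p = 0.00873). Dixon's criterion was applied to 24 sets of 4 arrays, 6 genes in 4 groups. On the linear scale no array stood alone. On the log2 scale of the tests, replicate 3 of the aromatic bulk did for CYP76M7, with an intensity of 5.16 and a gap of 0.856 of the range, above the critical value for 4 arrays. Chance flags about 1 in 20 such sets.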

How the results depend on the processing

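Across 22 other settings, 16 of which left out 1 array, 607 of 649 single-gene values kept their direction and their side of the threshold, 24 lost a call, 17 gained one and 1 turned its sign. Part of this stability was fixed in advance. Leaving out an array of a group outside a pairwise comparison cannot move the difference, only its p-value. Averaging probe sets per gene cannot move it either, since each of the 6 genes has 1 probe set. The sign turned for CYP76M7 between the aromatic bulk and Pusa 1121, an uncalled difference of 0.40 that was -0.0812 without replicate 1 of Pusa 1121 and ranged up to 0.893 over the fits that left out 1 array. Of the counts of member genes, 1 moved by over 1.5 times: 2 genes in place of 1 differed between the aromatic bulk and Pusa 1121 without replicate 4 of the aromatic bulk. Leaving out 1 array at a time gave 5 called genes between the bulks in each fit, 5 to 6 between the parents, 1 to 2 between the aromatic bulk and Pusa 1121, 3 to 5 between the non-aromatic bulk and Pusa 1342, 3 to 4 for the parental minus bulk difference and 8 to 11 neighbouring pairs. With the replicate number as a block the counts were 5, 5, 1, 3, 4 and 8, and the block changed 1 member call, that of CYP76M7 between the non-aromatic bulk and Pusa 1342. Over the whole array, leaving out 1 array gave 9229 to 10518 calls between the bulks and 13499 to 14806 between the parents. The filter for brighter probe sets removed KSL10, and only the 8 arrays compared could not be used for the difference of differences. The causes were not tested. Intensities lay under the array median for KSL10 and CYP76M7 in the aromatic groups, and the size of their log2 differences depended on the pseudocount. Between the parents these were -4.54 for KSL10 and -4.74 for CYP76M7. With a pseudocount of 16 they were -2.79 and -3.62.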
